A study of Homo sapiens with 18 samples.

Results

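The 10 genes described here are targets and feedback inhibitors of bone morphogenetic protein (BMP) signalling: ID1, ID2, ID3, ID4, SMAD6, SMAD7, SMAD9, BAMBI, MSX1 and MSX2. They were taken by symbol from the deposited count table, where 10 of 10 were found among 35025 genes, and 10 of 10 passed the filter on low counts that left 15531 genes to test. Their transcripts were followed in 18 bulk RNA-seq libraries of foregut endoderm derived from H1, an established human embryonic stem cell line of wild-type genotype. The 6 groups of 3 libraries were day 9 cells given retinoic acid (RA) and then CHIR99021 with BMP4, day 9 cells given RA alone, day 9 cells given CHIR99021 with BMP4 alone, untreated day 9 cells, day 6 cells given RA and untreated day 6 cells. RA was the all-trans form at 2 µM, added for 24 h from day 5 to day 6. CHIR99021, an inhibitor of the kinase GSK3 that switches on Wnt signalling, was used at 2 µM together with 50 ng/mL of BMP4 for 72 h from day 6 to day 9. The 2 agents were never given apart, so what BMP4 did and what CHIR99021 did cannot be told apart in these data. Every group came from the same cell line, and the labels do not say whether replicates were separate cultures, so the tests measure the spread between libraries, which may be technical.

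BMP ligands bind pairs of type I and type II receptor kinases, which phosphorylate SMAD1, SMAD5 and SMAD9. These join SMAD4, enter the nucleus and switch on target genes. The ID genes are among the most direct of those targets, and their proteins hold the E proteins TCF3, TCF4 and TCF12 away from DNA. SMAD6 and SMAD7 are inhibitory SMADs that block the receptors, BAMBI is a receptor-like membrane protein without a kinase, and MSX1 and MSX2 are homeobox repressors, so most of these genes feed back on the pathway or carry its output. In the foregut, BMP and Wnt signals from the neighbouring mesoderm take part in specifying the respiratory domain, and RA acts on the same tissue through nuclear receptors.

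The promoters of BAMBI, ID1 and ID3 are shown because BAMBI and ID3 gave some of the largest differences below and because ID1 and ID3 had the most similar pattern over the 6 groups of any pair of members. Each line holds the 250 bases before the gene's start as annotated by RefSeq on GRCh38.p14, 5′ to 3′ on the gene's own strand. The spans are chr10:28677271-28677520 on the plus strand for BAMBI, chr20:31605039-31605288 on the plus strand for ID1 and chr1:23559502-23559751 on the minus strand for ID3. Capitals mark the GC-rich SMAD palindrome GGCGCC and the SMAD box GTCTG, which reads CAGAC on the opposite strand.
BAMBI: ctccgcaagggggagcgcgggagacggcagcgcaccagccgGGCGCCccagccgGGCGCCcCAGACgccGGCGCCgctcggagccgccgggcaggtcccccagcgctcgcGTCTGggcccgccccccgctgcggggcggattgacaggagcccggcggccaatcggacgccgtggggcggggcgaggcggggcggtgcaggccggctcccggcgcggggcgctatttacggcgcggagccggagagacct
ID1: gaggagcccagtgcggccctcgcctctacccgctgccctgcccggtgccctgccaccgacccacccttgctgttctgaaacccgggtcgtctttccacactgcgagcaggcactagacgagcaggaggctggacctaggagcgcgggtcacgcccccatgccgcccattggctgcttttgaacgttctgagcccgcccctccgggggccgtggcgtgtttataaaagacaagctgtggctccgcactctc
ID3: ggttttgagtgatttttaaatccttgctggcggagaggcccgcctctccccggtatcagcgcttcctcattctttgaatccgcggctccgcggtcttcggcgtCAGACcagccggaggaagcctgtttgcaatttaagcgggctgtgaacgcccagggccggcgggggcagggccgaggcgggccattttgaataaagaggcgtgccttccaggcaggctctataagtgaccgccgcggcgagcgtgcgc

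Promoter windows, of 250 bases before and 50 after the start, were found for 10 of 10 members. SMAD7 had more than 1 window, for different annotated starts. A member was counted if any of its windows matched, while the shares of all windows count each window once. GGCGCC was in the window of 1 member, BAMBI, where it occurred 3 times, beginning at positions -209, -196 and -181 from the start, and 19.2% of all 34796 RefSeq windows held it. The SMAD box, on either strand, was in the windows of 5 members (ID3, ID4, SMAD7, SMAD9 and BAMBI), against 45.3% of all windows. CTTTGAT, the core that TCF and LEF factors bind in Wnt signalling, was in the windows of 0 of 10 members and in 2.62% of all windows, counting its reverse complement ATCAAAG. The motif AGGTCA, a unit of the sites that nuclear receptors bind, was sought with its reverse complement TGACCT. It was in windows of 2 members, ID3 and SMAD7, and in 13.8% of all windows. In SMAD7 it lay in only 1 window, and the SMAD boxes of SMAD7 lay in others. A match describes letters in these windows and does not show a bound site.

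By RefSeq on GRCh38.p14, where all 10 are annotated as protein-coding, the ID genes lie at chr20:31605289-31606510 (ID1, plus strand), chr2:8682056-8684461 (ID2, plus), chr1:23557926-23559501 (ID3, minus) and chr6:19837370-19842197 (ID4, plus). SMAD6 lies at chr15:66702236-66782849 (plus), SMAD7 at chr18:48919853-48950965 (minus), SMAD9 at chr13:36844831-36920854 (minus), BAMBI at chr10:28677521-28682932 (plus), MSX1 at chr4:4859665-4863936 (plus) and MSX2 at chr5:174724582-174730896 (plus). The values count reads over whole genes. SMAD6 and SMAD9 each hold an intronic gene on their own strand that is not in the count table.

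The libraries held between 5792269 and 25371403 counts each. Foregut endoderm markers were present throughout, with 10 of 10 at 1 CPM or more in every group (CPM, counts scaled to a common library size with TMM factors). A difference outside the members ran with treatment. In 73 genes, every untreated day 9 library stood at least 10-fold from every treated library, and the share of pseudogenes was 91.8% in these and 3.63% in all genes reaching 2 CPM; none of the members was among them. On a scale from 0% (untreated day 9) to 100% (treated libraries) made from these genes, the untreated day 6 replicates 1, 2 and 3 lay at 24.9%, 0% and 43.5%. The place of a library on this scale is called its read kind below. The 73 genes were picked by this difference, so both ends of the scale are set by that choice. They include protein-coding genes such as BARX1. The labels name no source for the difference, and its source was not tested. The read kind differs between the groups in every comparison of a treated with an untreated group. CHIR99021 with BMP4 after RA, RA before CHIR99021 with BMP4, and day 9 against day 6 after RA were compared within 1 kind. Of the untreated day 6 replicates, replicate 3 had the highest level of 9 of 10 members. The part of the read kind in the results was not tested beyond the values given below.

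Per gene length, ID3 and ID1 were the most abundant members in day 9 cells given RA alone, with means of 1098 and 921.5 TPM (the deposited abundance, scaled by gene length and to the same total in every library). BAMBI followed at 633.4 TPM, ID2 at 332.1 TPM and ID4 at 218.7 TPM. The inhibitory SMADs and SMAD9 were lower, with SMAD6 at 119 TPM, SMAD7 at 99.3 TPM and SMAD9 at 51.2 TPM. MSX2 and MSX1 were scarce in that group, at 16.4 and 5.66 TPM.

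**Figure D1:**
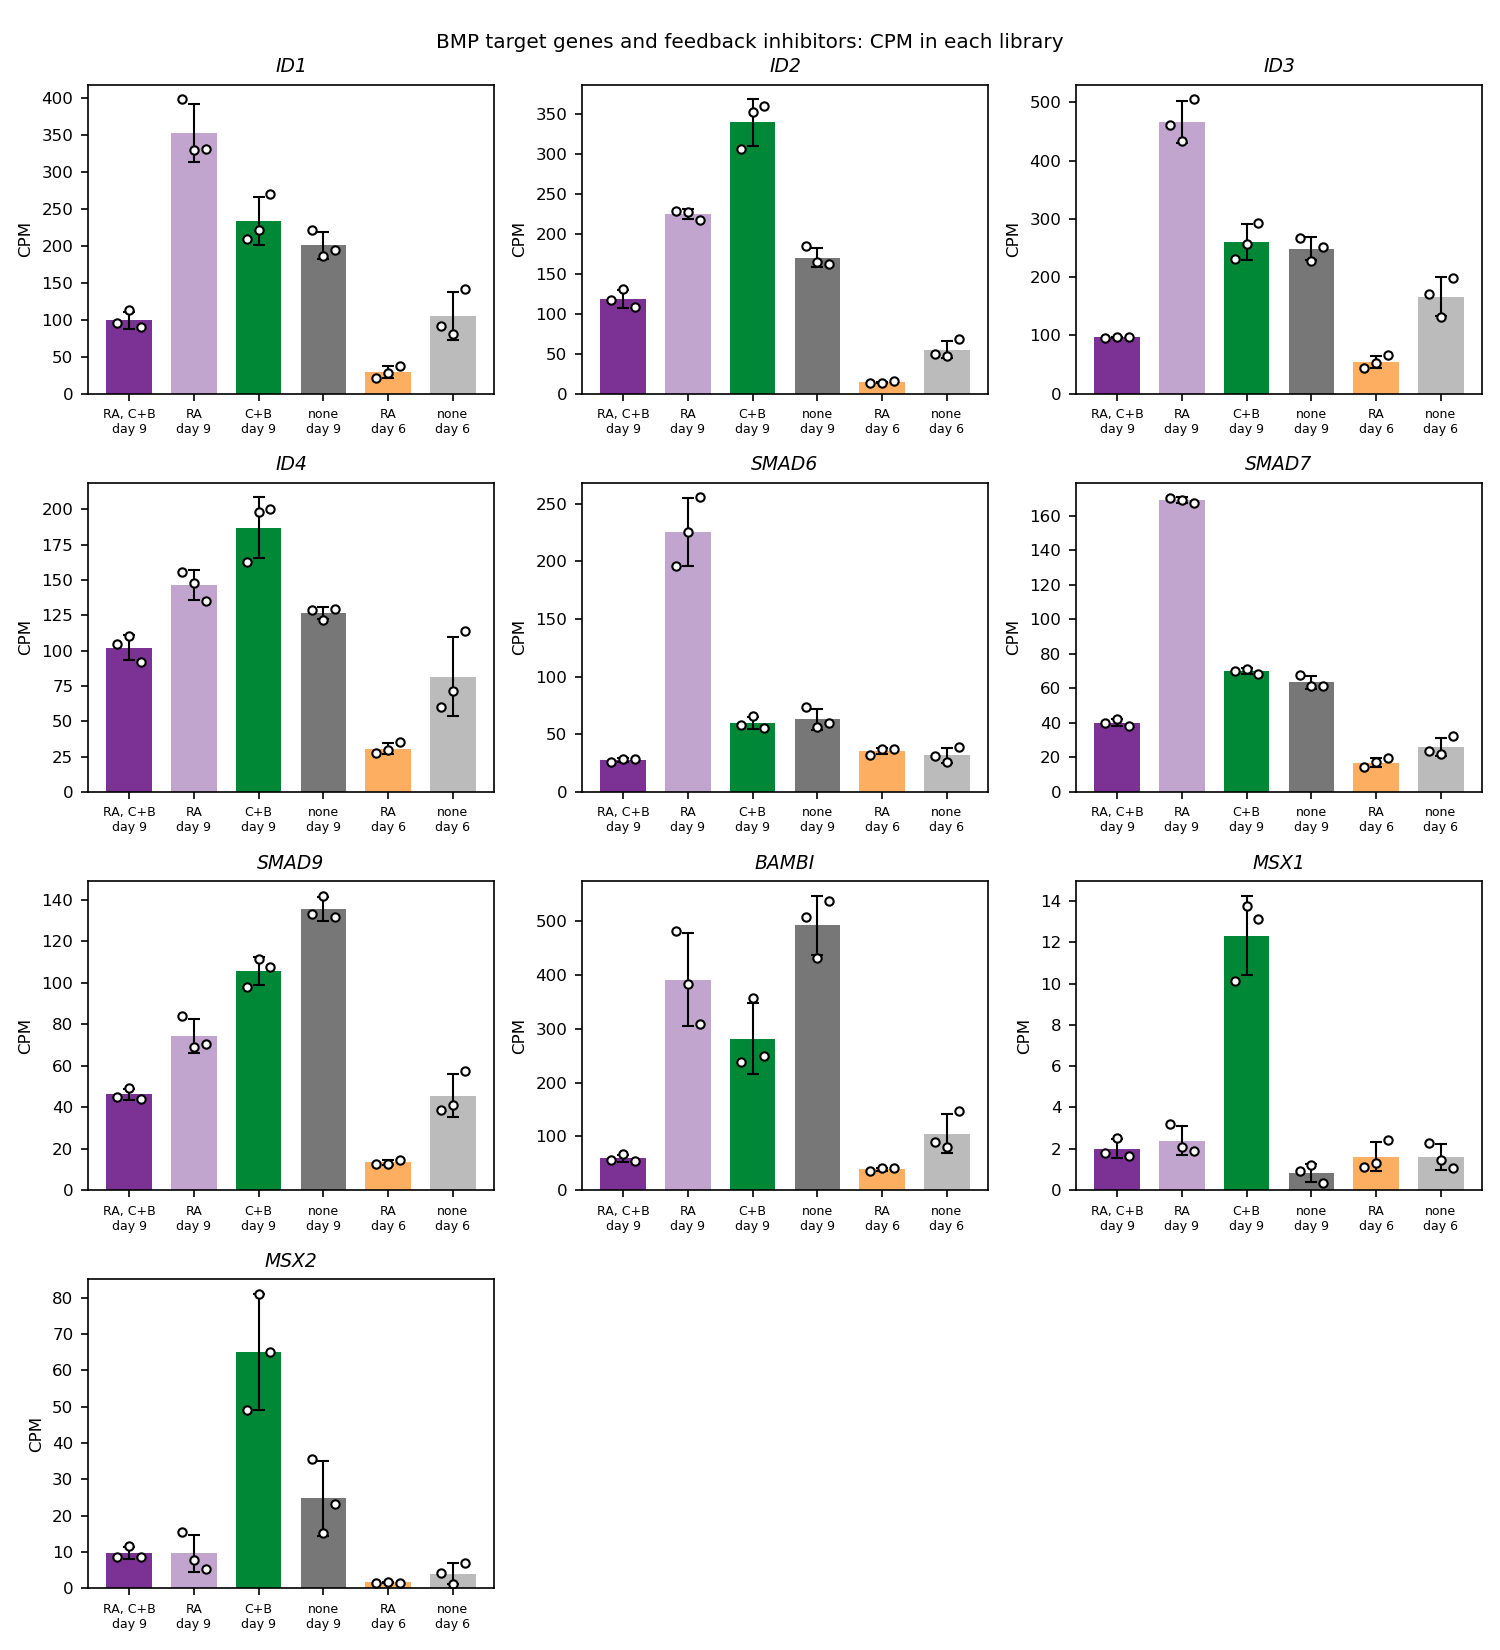
Level of each of the 10 members in CPM (vertical axes, from 0, on a scale of its own for each gene) in the 6 groups, with C+B standing for CHIR99021 with BMP4 and none for untreated. Bars are means, whiskers SD and circles the 3 libraries; ID1, ID3, SMAD6 and SMAD7 peak in day 9 cells given RA alone, and ID2, ID4, MSX1 and MSX2 in day 9 cells given CHIR99021 with BMP4 alone.

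Over the 6 groups, the highest group mean was 39.8-fold above the lowest for MSX2, the widest span of the 10, 24.4-fold for ID2 and 6.1-fold for ID4, the narrowest. Day 6 cells given RA had the lowest mean of 8 members, with SMAD6 (day 9 cells given RA then CHIR99021 with BMP4) and MSX1 (untreated day 9 cells) as the exceptions. ID1, ID3, SMAD6 and SMAD7 were highest in day 9 cells given RA alone, ID2, ID4, MSX1 and MSX2 in day 9 cells given CHIR99021 with BMP4 alone, and SMAD9 and BAMBI in untreated day 9 cells. ID2 and SMAD7 were the members whose groups stood apart most cleanly: none of the 5 neighbouring pairs in their order of means overlapped. For MSX1, 4 of 5 neighbouring pairs overlapped, and the group given CHIR99021 with BMP4 alone was the only one apart from its neighbour. For SMAD6, the 3 lowest groups (day 6 cells given RA, untreated day 6 cells and day 9 cells given RA then CHIR99021 with BMP4) each overlapped the next, as did untreated day 9 cells and day 9 cells given CHIR99021 with BMP4. For BAMBI, untreated day 9 cells, day 9 cells given RA alone and day 9 cells given CHIR99021 with BMP4 alone overlapped in turn.

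**Figure D2:**
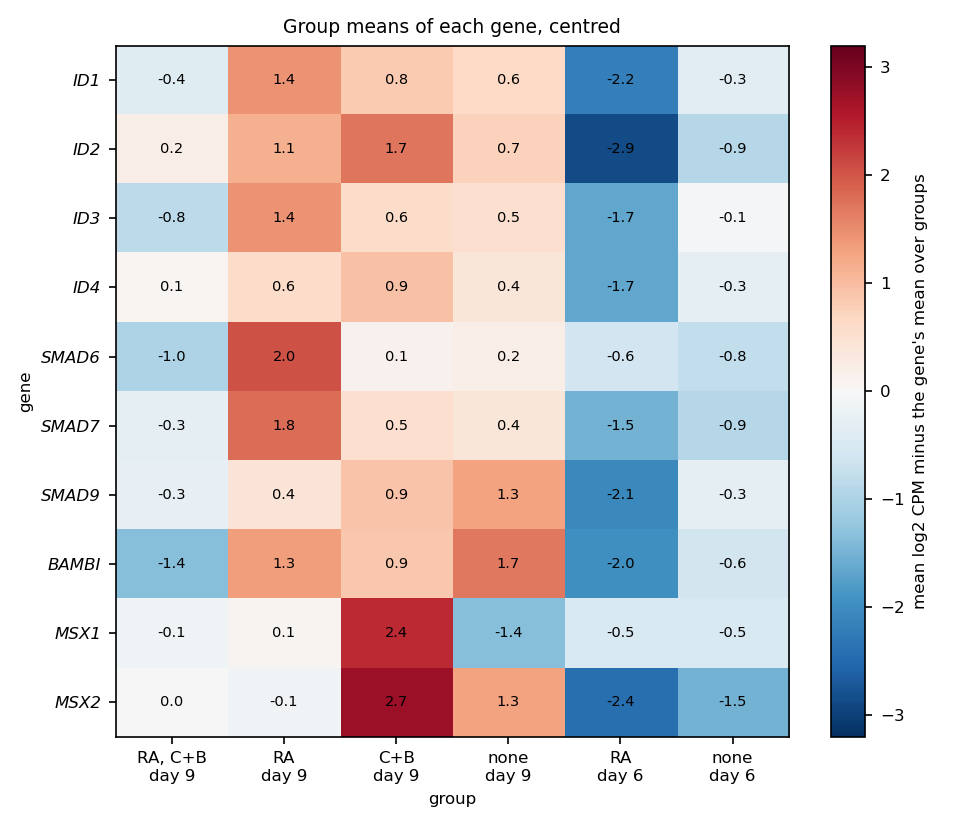
Mean log2 CPM of each member (rows) in each group (columns) after subtracting the gene's mean over the 6 groups, with the value written in each cell and shown by colour. ID1 and ID3 run alongside each other, and MSX1 and MSX2 share their highest group.

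In cells that had seen RA, adding CHIR99021 with BMP4 lowered most of the set. Of 10 members, 8 fell and none rose, against 64.4% of all genes called, 32.3% lower and 32.1% higher (called means an adjusted p below 0.05 from edgeR's quasi-likelihood test, adjusted by Benjamini-Hochberg over all 15531 genes). The falls were deepest in the feedback inhibitors SMAD6 and BAMBI, and the 8 that fell were also the 8 whose libraries did not overlap, against 69.3% of all genes. The median log2 fold change was -1.37 over the members and 0.02 over all genes.

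SMAD6, which acts mainly on BMP receptors, stood at 25.6, 28.3 and 28.4 CPM in cells given RA then CHIR99021 with BMP4, against 196.5, 225.7 and 255.6 CPM in cells given RA alone. The groups lay far apart and the log2 fold change was -3.05 ± 0.131 (SE), 8.3-fold lower (adjusted p = 8.7e-14). SMAD7, which also blocks TGF-β receptors, had 39.6, 42.1 and 38.3 CPM in cells given RA then CHIR99021 with BMP4 and 170.4, 169.2 and 167.4 CPM in cells given RA alone, a log2 fold change of -2.08 ± 0.098 (adjusted p = 1.6e-14). Both groups were tight, and SMAD7 was 4.22-fold lower.

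BAMBI had 56.4, 66.2 and 54.4 CPM in cells given RA then CHIR99021 with BMP4, against 482.1, 383 and 309.1 CPM in cells given RA alone. The libraries given RA alone varied widely, yet the lowest of them was above every library given all agents, and the log2 fold change was -2.73 ± 0.239 (adjusted p = 2.2e-07). SMAD9, the receptor-activated SMAD of the set, moved less, with 45.1, 49.4 and 44.0 CPM in cells given RA then CHIR99021 with BMP4 and 83.9, 69.1 and 70.6 CPM in cells given RA alone (log2 fold change -0.69 ± 0.11, adjusted p = 9.9e-06).

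Among the ID genes, ID3 fell most. Its levels were 95.5, 97.3 and 96.8 CPM in cells given RA then CHIR99021 with BMP4, against 460.4, 433.7 and 505.5 CPM in cells given RA alone, a log2 fold change of -2.27 ± 0.141 (adjusted p = 2.1e-10). ID1 had 94.8, 112.4 and 90.4 CPM in cells given RA then CHIR99021 with BMP4 and 397.8, 328.8 and 330.6 CPM in cells given RA alone (log2 fold change -1.83 ± 0.201, adjusted p = 1.7e-06). In both genes the lowest library given RA alone was well above the highest library given all agents. ID2 had 117.3, 130.6 and 107.8 CPM in cells given RA then CHIR99021 with BMP4 and 228.9, 226.9 and 217 CPM in cells given RA alone (log2 fold change -0.92 ± 0.1, adjusted p = 3.8e-08). ID4 had the smallest fall, with 104.4, 110 and 92.1 CPM in cells given RA then CHIR99021 with BMP4 and 155.9, 147.9 and 134.9 CPM in cells given RA alone (log2 fold change -0.51 ± 0.169, adjusted p = 0.015). The call for ID4 was lost without replicate 1 of the RA group (adjusted p = 0.05) and without replicate 3 of the group given all agents (adjusted p = 0.055).

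The homeobox members did not pass the test. MSX1 had 1.82, 2.51 and 1.65 CPM in cells given RA then CHIR99021 with BMP4, against 3.21, 2.09 and 1.89 CPM in cells given RA alone, with a 95% interval of the log2 fold change from -0.89 to 0.44. MSX2 had 8.66, 11.7 and 8.68 CPM in cells given RA then CHIR99021 with BMP4, against 15.4, 7.94 and 5.44 CPM in cells given RA alone, with an interval from -0.91 to 1.05. In both genes the groups overlapped, and the intervals leave room for changes of about 1 on the log2 scale.

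**Figure D3:**
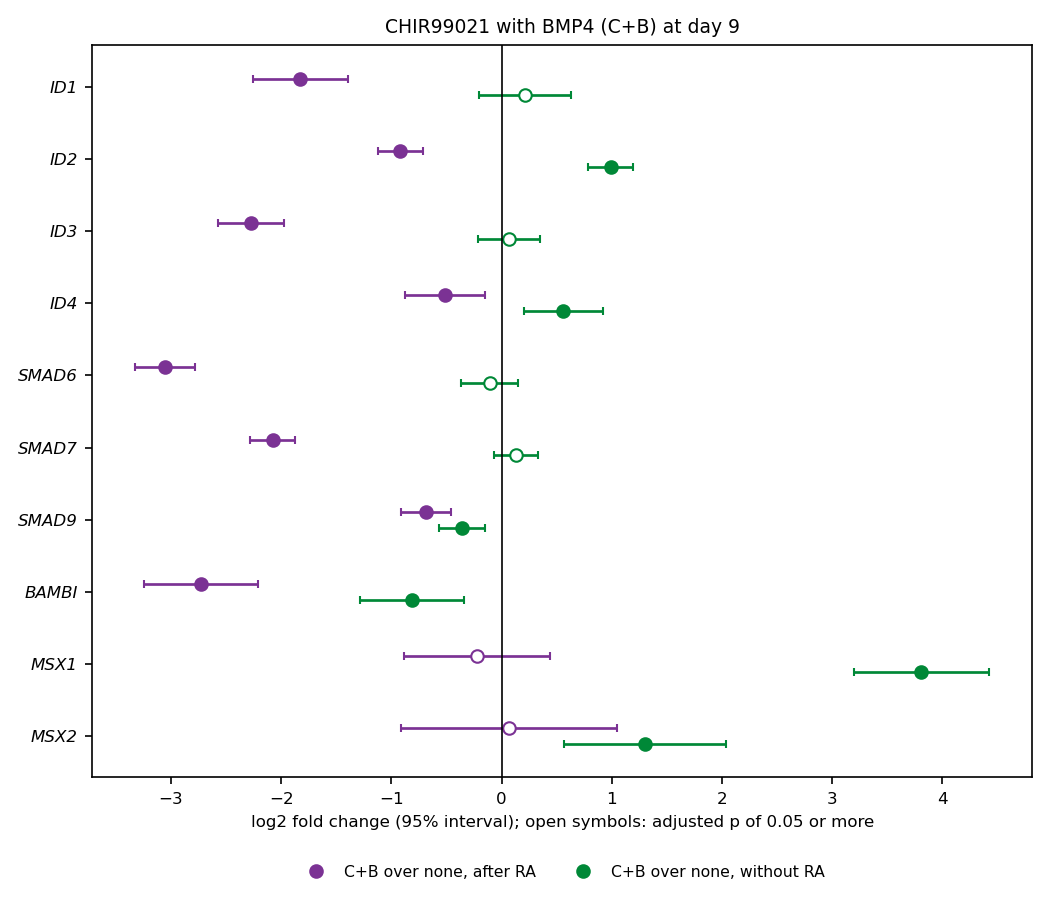
Log2 fold change of each member (rows) on adding CHIR99021 with BMP4 at day 9, after RA (purple, upper symbol) and without RA (green, lower symbol). Bars are 95% intervals and open symbols have an adjusted p of 0.05 or more; after RA the 8 filled symbols all lie left of 0, while without RA MSX1 lies at 3.81 and ID2 at 0.99.

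Without RA the same addition split the set. Of 10 members, 4 rose (ID2, ID4, MSX1 and MSX2), 2 fell (SMAD9 and BAMBI) and 4 did not pass the test (ID1, ID3, SMAD6 and SMAD7), so 6 of 10 were called against 42.8% of all genes. Among all genes 21% were called higher and 21.8% lower. The read kind runs with the groups in this comparison and cannot be told apart from the treatment: with the read kind as a covariate 0 members were called, and ID2, ID4 and MSX2 turned to -0.18, -0.94 and -4.27. Since no other group mixes the kinds, the covariate takes its information from the untreated day 6 libraries.

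MSX1 showed the largest difference of the set. It had 10.1, 13.7 and 13.1 CPM in cells given CHIR99021 with BMP4 alone, against 0.92, 1.19 and 0.35 CPM in untreated day 9 cells. No libraries overlapped, and the log2 fold change was 3.81 ± 0.298, 14-fold higher (adjusted p = 4.3e-10). With the read kind as a covariate MSX1 was at 4.61 (adjusted p = 0.25). MSX2 had 49.0, 81.0 and 65.1 CPM in cells given CHIR99021 with BMP4 alone, against 35.6, 15.3 and 23.3 CPM in untreated day 9 cells, with every treated library above every untreated one (log2 fold change 1.3 ± 0.341, adjusted p = 0.0073). A processed pseudogene of MSX2, MSX2P1, is annotated but has no row of its own in the count table, so MSX2 counts may hold reads of that copy.

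ID2 stood at 305.8, 351.8 and 359.5 CPM in cells given CHIR99021 with BMP4 alone, against 184, 164.1 and 161.7 CPM in untreated day 9 cells. The groups were well separated (log2 fold change 0.99 ± 0.098, adjusted p = 3e-08). ID4 had 162.5, 198.3 and 200.4 CPM in cells given CHIR99021 with BMP4 alone and 128.6, 121.9 and 129.6 CPM in untreated day 9 cells (log2 fold change 0.56 ± 0.166, adjusted p = 0.013). ID2 and ID4 each overlap an annotated antisense gene that is not in the count table, and no source used here states whether counting was stranded; reads from the antisense partner cannot be told apart.

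For ID1 and ID3 the treated and untreated libraries overlapped. ID1 had 208.3, 220.5 and 269.5 CPM in cells given CHIR99021 with BMP4 alone, against 221.3, 186 and 194.4 CPM in untreated day 9 cells (95% interval of the log2 fold change -0.20 to 0.63, adjusted p = 0.41). ID3 had 231.1, 257.4 and 293.3 CPM in cells given CHIR99021 with BMP4 alone, against 266.4, 227.6 and 251.8 CPM in untreated day 9 cells, with an interval from -0.22 to 0.35 (adjusted p = 0.72). Neither interval reaches 1, a doubling.

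The inhibitory SMADs were also near their untreated levels. SMAD6 had 57.9, 66.1 and 55.4 CPM in cells given CHIR99021 with BMP4 alone, against 73.6, 56.5 and 59.4 CPM in untreated day 9 cells (interval -0.37 to 0.15, adjusted p = 0.51). SMAD7 had 70.2, 71.4 and 68.2 CPM in cells given CHIR99021 with BMP4 alone, against 67.9, 61.3 and 61.3 CPM in untreated day 9 cells; its libraries did not overlap, but the interval ran from -0.07 to 0.33 (adjusted p = 0.3). On the TPM scale SMAD7 was called higher (log2 difference 0.38, adjusted p = 0.02). In all, 7 members had groups that did not overlap, against 49.3% of all genes.

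SMAD9 and BAMBI were lower. SMAD9 had 98.2, 111.7 and 107.5 CPM in cells given CHIR99021 with BMP4 alone and 133.2, 142.1 and 131.8 CPM in untreated day 9 cells (log2 fold change -0.36 ± 0.102, adjusted p = 0.0066). BAMBI had 237.4, 356.9 and 250.3 CPM in cells given CHIR99021 with BMP4 alone and 508, 431.2 and 538.1 CPM in untreated day 9 cells (log2 fold change -0.81 ± 0.218, adjusted p = 0.0086). On the deposited TPM scale the call for SMAD9 was lost (log2 fold change -0.12, adjusted p = 0.49), where the median log2 fold change of all genes lay at 0.225 and 6400 genes were called higher and 1634 lower, against 3268 higher and 3386 lower on counts.

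The response to CHIR99021 with BMP4 after RA was then set against the response without RA in an interaction term. It was negative and called in 8 of 10 members, against 53.4% of all genes called either way and 27.9% with a lower term. MSX1 had the largest term at -4.04 ± 0.455; it rose without RA and did not pass the test after RA. SMAD6 followed at -2.94 ± 0.179, ID3 at -2.34 ± 0.193, SMAD7 at -2.21 ± 0.136 and ID1 at -2.04 ± 0.278. BAMBI at -1.92 ± 0.317, ID2 at -1.91 ± 0.14 and ID4 at -1.07 ± 0.237 completed the 8. SMAD9, which fell in both settings, had a term of -0.33 (interval -0.64 to -0.02, adjusted p = 0.07), which was called on the TPM scale (-0.56, adjusted p = 0.018) and with only the groups compared (-0.34, adjusted p = 0.023). MSX2 had a term of -1.23 (interval -2.47 to -0.004, adjusted p = 0.085). With the read kind as a covariate 0 members and 1304 genes were called in this interaction, against 8300 genes without it. On the TPM scale 2474 genes had a higher and 5911 a lower term, against 3966 and 4334 on counts.

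Prior RA was also compared within cells given CHIR99021 with BMP4, where the libraries hold a single read kind. All 10 members were lower in the cells given RA first, against 43.3% of all genes called and 22.1% called lower, and in all 10 the groups did not overlap, against 56.2% of all genes. The median log2 fold change was -1.33 over the members and -0.01 over all genes. Leaving out any of the 6 libraries in turn left 10 of 10 called, and 10 of 10 were also lower on the TPM scale, where 3951 genes were called higher and 2417 lower, against 3292 and 3437 on counts.

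The homeobox genes differed most here. MSX1 averaged 1.99 ± 0.455 CPM (SD, n = 3) in cells given RA then CHIR99021 with BMP4 and 12.3 ± 1.93 CPM in cells given CHIR99021 with BMP4 alone, 6.17-fold lower. MSX2 averaged 9.66 ± 1.72 CPM in cells given RA then CHIR99021 with BMP4 and 65.1 ± 16 CPM in cells given CHIR99021 with BMP4 alone, 6.74-fold lower. Their log2 fold changes were -2.62 ± 0.252 (SE, adjusted p = 1.2e-08) for MSX1 and -2.75 ± 0.376 (adjusted p = 5e-05) for MSX2.

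BAMBI was 4.76-fold lower, at 59.0 ± 6.28 CPM in cells given RA then CHIR99021 with BMP4 against 281.6 ± 65.6 CPM in cells given CHIR99021 with BMP4 alone (adjusted p = 3.7e-06). SMAD9 was 2.29-fold lower (46.1 ± 2.88 CPM with RA first, 105.8 ± 6.92 CPM without RA). SMAD6 was 2.18-fold lower (27.5 ± 1.57 CPM with RA first, 59.8 ± 5.58 CPM without RA) and SMAD7 1.75-fold lower (40.0 ± 1.91 CPM with RA first, 69.9 ± 1.59 CPM without RA). The 3 SMAD genes had smaller fold differences than BAMBI and the homeobox genes; these sizes were not tested against each other.

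All 4 ID genes were lower after RA under CHIR99021 with BMP4; the sizes of their falls were not tested against each other. ID2 was 2.86-fold lower after RA (118.5 ± 11.4 CPM in cells given RA first, 339 ± 29 CPM in cells given no RA), ID3 2.7-fold lower (96.5 ± 0.955 CPM with RA first, 260.6 ± 31.2 CPM without RA) and ID1 2.35-fold lower (99.2 ± 11.6 CPM with RA first, 232.8 ± 32.4 CPM without RA). ID4 was 1.83-fold lower (102.1 ± 9.16 CPM with RA first, 187 ± 21.3 CPM without RA), the smallest of the 4. Their adjusted p values ran from 4.2e-11 (ID2) to 0.00059 (ID4).

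**Figure D4:**
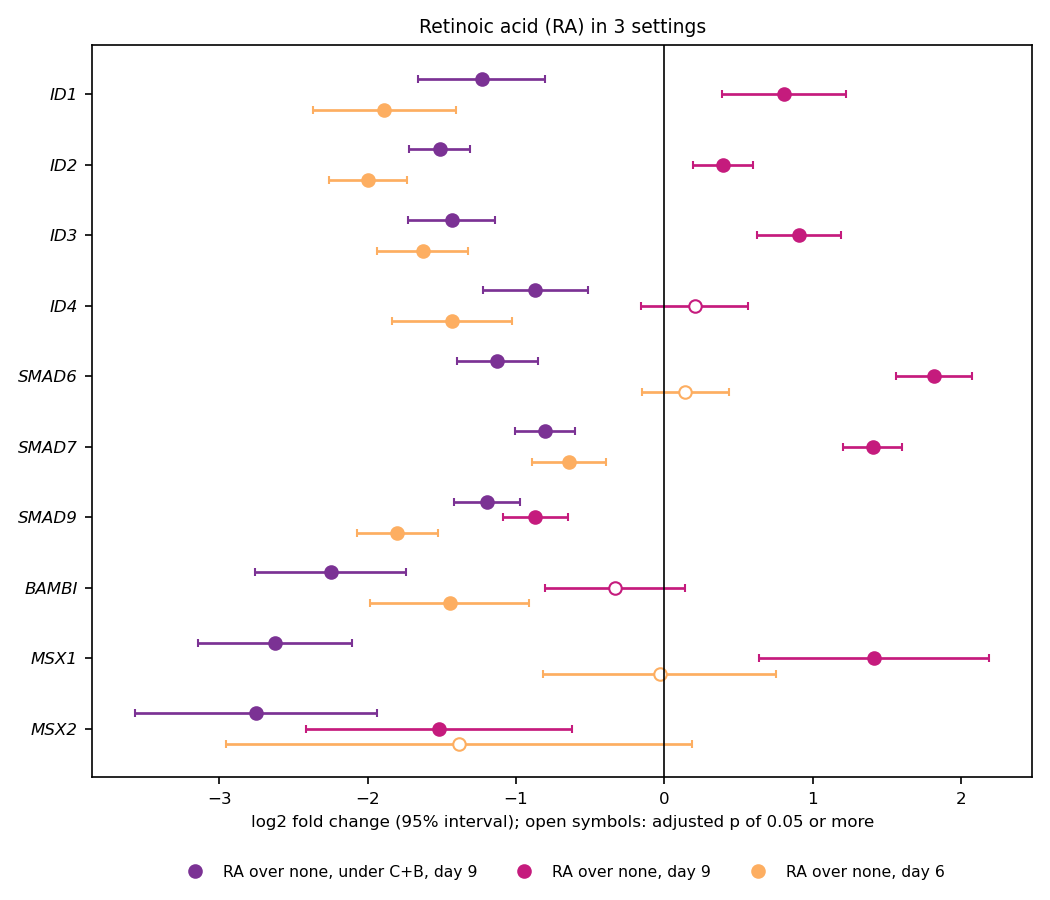
Log2 fold change of each member (rows) for RA over no RA in 3 settings, at day 9 under CHIR99021 with BMP4 (purple, upper symbol), at day 9 with no later agent (magenta, middle) and at day 6 (orange, lower). Bars are 95% intervals and open symbols have an adjusted p of 0.05 or more; all 10 members lie left of 0 under CHIR99021 with BMP4, while ID1, ID2, ID3, SMAD6, SMAD7 and MSX1 lie right of 0 at day 9 with no later agent.

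At day 9 with no later agent, RA went with higher levels of most of the set. Of 10 members, 6 rose (ID1, ID2, ID3, SMAD6, SMAD7 and MSX1) and 2 fell (SMAD9 and MSX2), against 32.5% of all genes called higher and 32.5% called lower. SMAD6 was 3.52-fold higher, at 225.9 ± 29.5 CPM (SD, n = 3) in cells given RA alone and 63.2 ± 9.15 CPM in untreated day 9 cells. SMAD7 was 2.64-fold higher (169 ± 1.47 CPM in cells given RA alone, 63.5 ± 3.81 CPM in untreated cells).

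ID3, ID1 and ID2 were 1.87-fold, 1.75-fold and 1.31-fold higher, with adjusted p values of 1.4e-05, 0.0022 and 0.0013. ID4 had a log2 fold change of 0.20 (interval -0.16 to 0.57, adjusted p = 0.31) and BAMBI one of -0.33 (interval -0.81 to 0.14, adjusted p = 0.2). SMAD9 was 1.83-fold lower (74.5 ± 8.15 CPM in cells given RA alone, 135.7 ± 5.6 CPM in untreated cells). MSX1 was 2.66-fold higher, and MSX2 2.87-fold lower although its groups overlapped; the call for MSX2 was lost without replicate 1 of the untreated day 9 group (adjusted p = 0.055) and on the TPM scale (adjusted p = 0.084). Groups did not overlap in 8 members, against 65.6% of all genes. The read kind runs with the groups here too and cannot be told apart from RA: with it as a covariate 1 member was called, SMAD9, while SMAD6 and SMAD7 were at 0.40 and 0.15 and ID1, ID2, ID3 and ID4 were at -1.001, -0.77, -0.48 and -1.29. On the TPM scale 7653 genes were called higher and 2802 lower, against 5054 higher and 5051 lower on counts.

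The cells given RA alone differed from the other day 9 groups in cell type markers as well. The summed level of 10 cardiac muscle markers had a median of 15.2 CPM (range 15.2 to 15.5) in cells given RA then CHIR99021 with BMP4, 1693 CPM (1301 to 1913) in cells given RA alone, 17.1 CPM (15.5 to 23.1) in cells given CHIR99021 with BMP4 alone and 57.7 CPM (53.1 to 58.4) in untreated day 9 cells. All 10 of these markers were at 1 CPM or more in cells given RA alone and 5 of 10 in cells given RA then CHIR99021 with BMP4, where the myosin-binding gene MYBPC3 was at 0. Summed over 12 mesenchyme markers, the medians were 653.3 CPM in cells given RA then CHIR99021 with BMP4 (range 644.6 to 676.3), 4964 CPM in cells given RA alone (4312 to 5601), 1558 CPM in cells given CHIR99021 with BMP4 alone (1515 to 1856) and 977.7 CPM in untreated day 9 cells (903.4 to 1426), with 11 of 12 at 1 CPM or more in cells given all agents (TWIST2 at 0) and 10 of 12 in each of the other 3 groups. The mesenchyme markers did not move as 1. On adding CHIR99021 with BMP4 after RA, 6 of 11 tested fell and 3 rose, against 64.4% of all genes called. VIM averaged 297.5 CPM in cells given all agents and 2000 CPM in cells given RA alone, and PDGFRA 54.5 and 20.7 CPM. The part of both marker lists in the levels of the members was not tested. In bulk RNA, fewer cells of a type and less RNA per cell cannot be told apart.

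At day 6, directly after its 24 h, RA went with lower levels of 7 members, and none rose, against 48.7% of all genes called, 23.4% lower and 25.3% higher. ID2, SMAD9, ID1 and ID3 fell most. ID2 had 13.1, 13.5 and 15.2 CPM in day 6 cells given RA, against 49.7, 47.6 and 67.7 CPM in untreated day 6 cells, 4-fold lower (log2 fold change -2.00 ± 0.127, adjusted p = 1.2e-11). ID1 had 21.4, 27.6 and 37.4 CPM in day 6 cells given RA, against 91.0, 81.2 and 141.5 CPM in untreated day 6 cells (log2 fold change -1.89 ± 0.225, adjusted p = 8.1e-06). In both genes every RA library was below every untreated one.

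ID3 had 44.3, 52.8 and 65.8 CPM in day 6 cells given RA and 170.5, 130.8 and 198.2 CPM in untreated day 6 cells, 3.09-fold lower, and ID4 had 27.5, 29.4 and 35.1 CPM in day 6 cells given RA and 60.1, 71.3 and 113.5 CPM in untreated day 6 cells, 2.7-fold lower. Both ID genes kept every RA library below every untreated one. SMAD9 had 12.5, 12.8 and 14.7 CPM in day 6 cells given RA and 38.7, 40.9 and 57.3 CPM in untreated day 6 cells, 3.48-fold lower. BAMBI had 35.5, 40.3 and 40.8 CPM in day 6 cells given RA and 89.4, 79.7 and 146.2 CPM in untreated day 6 cells, 2.72-fold lower. Groups did not overlap in these genes. SMAD7 had the smallest called fall, 1.56-fold (adjusted p = 0.00011), and 7 members had groups that did not overlap, against 57.2% of all genes.

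SMAD6 stood apart from SMAD7 at this time. It had 32, 36.8 and 37.1 CPM in day 6 cells given RA and 30.7, 25.6 and 38.6 CPM in untreated day 6 cells, with a log2 fold change of 0.14 (interval -0.15 to 0.43, adjusted p = 0.43). MSX1 and MSX2 were low in both groups and did not pass, with intervals from -0.82 to 0.75 and from -2.96 to 0.19. The read kind runs with RA in this comparison as well. Set against untreated day 6 replicate 2 alone, the library without the treated read kind, ID2 was at -1.79, ID1 at -1.52 and BAMBI at -1.05. Read kind and RA then differ together in full, so this setting cannot tell them apart. This alternative was chosen after seeing the data, and in it a lone untreated library is assumed to vary like the other groups. On the TPM scale 6225 genes were called higher and 2099 lower, against 3929 and 3642 on counts, and SMAD6 was at 0.36 (adjusted p = 0.05).

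Between day 6 and day 9 the members rose in both settings. After RA 9 of 10 were higher at day 9 than at day 6, against 58.8% of all genes called, 28.5% higher and 30.3% lower. Without RA 9 of 10 were higher, against 46.9% of all genes called, 24% higher and 22.9% lower. ID2 was 16.2-fold higher at day 9 in RA cells and 3.08-fold higher in untreated cells, and ID1 12.4-fold and 1.91-fold higher. BAMBI was 10.1-fold higher in RA cells and 4.65-fold higher in untreated cells, SMAD7 10-fold and 2.44-fold, and SMAD6 6.41-fold and 2.01-fold.

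The same comparison gave 8.64-fold (RA cells) and 1.49-fold (untreated cells) for ID3, 4.8-fold and 1.54-fold for ID4, and 5.61-fold and 2.95-fold for SMAD9. MSX2 was 5.5-fold higher in RA cells and 6.04-fold higher in untreated cells. In untreated cells the log2 fold change of MSX2, 2.60, was 3.24 without day 6 replicate 3 and 4.54 against day 6 replicate 2 alone, where 4495 genes were called in all, against 7287. MSX1 was the exception, at 0.59 (interval -0.13 to 1.32, adjusted p = 0.15) in RA cells and -0.85 (interval -1.70 to -0.002, adjusted p = 0.093) in untreated cells. Groups did not overlap in 9 members after RA, against 65% of all genes, and in 9 without RA, against 50.9%. On the TPM scale 2228 genes were higher and 5648 lower in untreated day 9 cells, against 3735 and 3552 on counts.

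The effect of RA at day 9 differed from its effect at day 6 in 9 of 10 members by the interaction term, against 50.9% of all genes called, 24.9% with a higher and 26% with a lower term. ID1 had the largest, 2.69 ± 0.297, followed by ID3 (2.53 ± 0.199), ID2 (2.40 ± 0.161) and SMAD7 (2.05 ± 0.153). SMAD6 was at 1.68 ± 0.185, ID4 at 1.64 ± 0.254, MSX1 at 1.44 ± 0.538, BAMBI at 1.11 ± 0.329 and SMAD9 at 0.93 ± 0.169. MSX2 had a term of -0.14 with an interval from -2.08 to 1.81. With the read kind as a covariate, BAMBI (0.62, adjusted p = 0.14) and MSX1 (1.63, adjusted p = 0.055) were no longer called. Against untreated day 6 replicate 2 alone, BAMBI (adjusted p = 0.1) and MSX1 (adjusted p = 0.15) were no longer called and the other 7 were, and the call for MSX1 was also lost on leaving out any of 5 single libraries: untreated day 6 replicate 1, untreated day 9 replicate 3, day 6 RA replicates 1 and 2, and day 9 RA replicate 1 (adjusted p = 0.056 to 0.13). Untreated day 6 libraries hold part of the treated read kind, which enters this term and the change over time without RA. On the TPM scale 4718 genes had a higher and 3290 a lower term, against 3862 and 4044 on counts.

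The rest of the pathway was read from lists chosen for their roles. BMP4 transcript, from the cells' own gene, averaged 37.6 ± 4.87 CPM (SD, n = 3) in cells given RA then CHIR99021 with BMP4, 43.8 ± 9.48 CPM in cells given RA alone, 72.1 ± 14 CPM in cells given CHIR99021 with BMP4 alone, 190.4 ± 21.9 CPM in untreated day 9 cells, 118.8 ± 5.15 CPM in day 6 cells given RA and 714.3 ± 28.9 CPM in untreated day 6 cells. BMP2, whose product acts through the same receptors, averaged 9.58 ± 1.31 CPM in cells given RA then CHIR99021 with BMP4, 293.8 ± 67.1 CPM in cells given RA alone, 15.4 ± 5.25 CPM in cells given CHIR99021 with BMP4 alone, 19 ± 6.34 CPM in untreated day 9 cells, 123.3 ± 6.67 CPM in day 6 cells given RA and 203.2 ± 43.2 CPM in untreated day 6 cells. At day 9, BMP2 was thus high in the group in which SMAD6, SMAD7, ID1 and ID3 were highest. The heart ligand BMP10 was high in that group too, at 34.0 ± 6.59 CPM, against 0.13 ± 0.023 CPM in cells given RA then CHIR99021 with BMP4. Their part in the levels of the members was not tested.

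After RA, CHIR99021 with BMP4 lowered 7 and raised 3 of 11 BMP ligand genes tested, and without RA 4 rose and 4 fell. For these lists and those below, 64.4% of all genes were called after RA and 42.8% without RA. Of 13 secreted antagonists tested, 5 rose and 5 fell after RA, and 5 rose and 2 fell without RA. The 4 largest called changes after RA that reached 5 CPM went both ways. CHRDL2 (14.9-fold) and NBL1 (4.84-fold) rose, and BMPER (15.3-fold) and CER1 (11.4-fold) fell. NBL1 averaged 81.9 CPM in cells given RA then CHIR99021 with BMP4 and 16.9 CPM in cells given RA alone. NOG, the antagonist noggin, was low in both groups, at 2.1 ± 0.793 CPM in cells given RA then CHIR99021 with BMP4 and 4.5 ± 0.683 CPM in cells given RA alone. Of 10 receptors and signal-carrying SMADs, 4 rose and 2 fell after RA, and 2 rose and 1 fell without RA. The type II receptor gene BMPR2 fell to 86.5 ± 3.45 CPM in cells given RA then CHIR99021 with BMP4, against 191.8 ± 4.86 CPM in cells given RA alone, and the type I receptor gene BMPR1B was higher, at 25.5 ± 1.35 against 15.3 ± 1.66 CPM. Median log2 fold changes after RA were -2.25 for the ligands, -0.12 for the antagonists and 0.08 for the receptors, beside 0.02 for all genes.

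A list of 14 other genes joined genes known to respond to BMP with SMURF1, SMURF2, SKI and SKIL, which act on SMAD signalling. Of the 14, 3 rose and 8 fell after RA, with a median log2 fold change of -0.65. Without RA 5 rose and 3 fell, with a median of 0.28. Under CHIR99021 with BMP4, prior RA went with a fall in 9 and a rise in 2 of the 14. Of all genes, 43.3% were called in that comparison, 22.1% lower and 21.2% higher. TBX3, a T-box repressor, averaged 35.2 ± 2.79 CPM in cells given RA then CHIR99021 with BMP4, 244.5 ± 46 CPM in cells given RA alone and 240.1 ± 46.3 CPM in cells given CHIR99021 with BMP4 alone. GATA3, a zinc-finger factor, averaged 10.1 ± 0.27 CPM in cells given RA then CHIR99021 with BMP4, 39.7 ± 15.1 CPM in cells given RA alone and 92.6 ± 7.01 CPM in cells given CHIR99021 with BMP4 alone. Of these 3 groups, both genes were lowest in the cells given all agents.

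Most of the Wnt response genes on the list were higher in both settings. After RA, 9 of 12 rose on adding CHIR99021 with BMP4 and none fell (median log2 fold change 2.14), and without RA 9 rose and 2 fell (median 1.75). AXIN2, a direct Wnt target and feedback inhibitor, was 5.01-fold higher after RA, at 56.4 ± 4.2 CPM in cells given RA then CHIR99021 with BMP4 and 11.3 ± 0.585 CPM in cells given RA alone. In cells given CHIR99021 with BMP4 alone AXIN2 averaged 58.8 ± 3.82 CPM, against 18 ± 0.813 CPM in untreated day 9 cells. Between the 2 groups given CHIR99021 with BMP4, the interval of the AXIN2 difference ran from -0.25 to 0.13 on the log2 scale (adjusted p = 0.65). Most of the list did differ there. Of 12 genes, 7 were higher and 3 lower in the cells given RA first (median log2 fold change 0.58), against 43.3% of all genes called. On adding CHIR99021 with BMP4, neither SMAD6 nor SMAD7 was called higher in either setting on counts. On the TPM scale SMAD7 was called higher without RA.

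Response genes of Nodal and TGF-β fell. Of 9 tested, 7 fell and none rose on adding CHIR99021 with BMP4 after RA (median log2 fold change -1.68), and 6 fell and none rose without RA (median -0.62). CCN2, a matrix-associated growth factor gene, averaged 91.2 ± 13.4 CPM in cells given RA then CHIR99021 with BMP4 and 1011 ± 31.6 CPM in cells given RA alone. The E protein genes that ID proteins bind rose in 3 of 3 after RA and in 2 of 3 without RA (TCF3 and TCF4). After RA, TCF4 was 2.59-fold higher, at 184.5 ± 10.4 CPM in cells given RA then CHIR99021 with BMP4 and 71.4 ± 8.15 CPM in cells given RA alone. Untreated day 9 cells had 127.8 ± 11.7 CPM of TCF4. The other 2 rose less after RA, TCF3 by 1.31-fold and TCF12 by 1.13-fold.

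**Figure D5:**
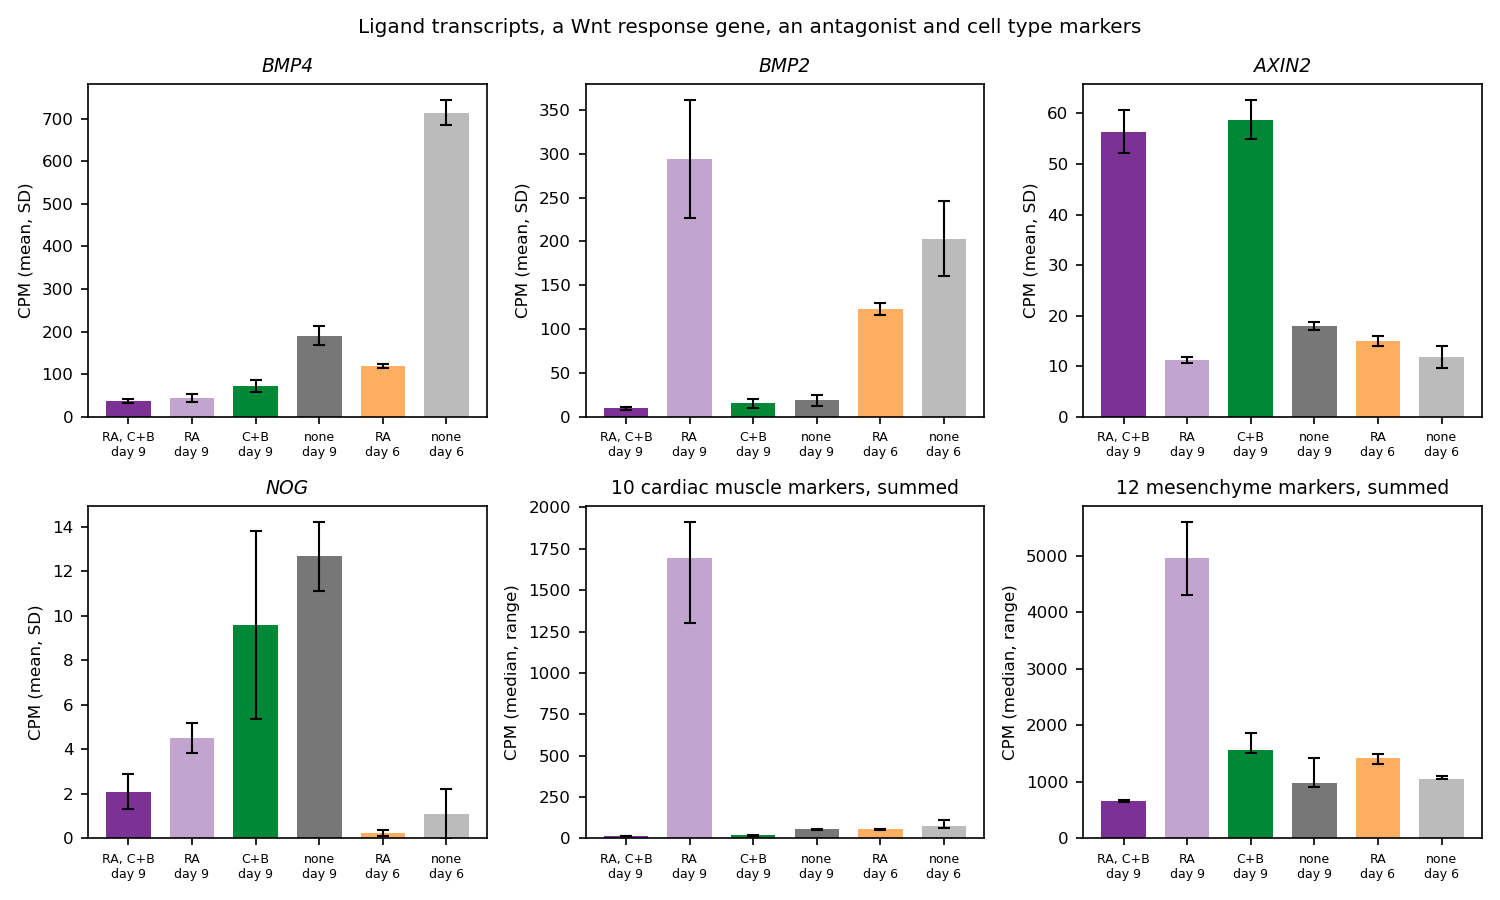
Levels in CPM (vertical axes, from 0) of the ligand transcripts BMP4 and BMP2, the Wnt response gene AXIN2, the antagonist NOG and 2 summed marker lists in the 6 groups, with C+B standing for CHIR99021 with BMP4 and none for untreated. Bars are means with SD for single genes and medians with the range for sums; BMP2 and both marker sums are high at day 9 in cells given RA alone, and AXIN2 in both groups given CHIR99021 with BMP4.

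Likeness of pattern was measured as the root mean square difference between 6 centred group means of log2 CPM, so that 0 means an identical pattern, and the groups share their libraries. Among member pairs, ID1 and ID3 were the closest at 0.32, then ID1 and SMAD7 at 0.42 and ID4 and SMAD9 at 0.43. Over 11451 genes, CACNA1C (0.06) and ITGA1 (0.09) lay nearest to SMAD6, FGFR3 (0.15) and CACNA2D1 (0.25) to ID4, and SLC35G2 (0.27) and AGPAT2 (0.28) to ID3. FAT4 and LRP1B were nearest to ID1, COL6A3 and MXRA5 to ID2, CNTN4 and SOWAHB to SMAD7, ZNF467 and CLDN4 to SMAD9, CDH10 and RUNX1 to BAMBI, NAV3 and KITLG to MSX1, and CXCL12 and CGB7 to MSX2. These distances lay between 0.28 (FAT4) and 0.52 (CGB7), so SMAD6 had much closer neighbours than MSX1 or MSX2.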

How the data were processed

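Libraries were made with a stranded TruSeq mRNA kit from RNA extracted with a Nucleospin kit, per the labels' protocols. The authors deposited whole-number read counts per gene and, in a second table, TPM. STAR 2.7.9 and GRCh38 are named per the submitters' processing notes; no source used here gives the counting step, its annotation or its strand setting. The libraries of a group differed by more than counting noise (chi-square per gene 2.15 to 10.63), so all 18 were kept.

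Counts were tested with edgeR 4.0.16 in R 4.3.3 (TMM factors, filterByExpr with a minimum count of 10, robust quasi-likelihood fit of 1 mean per group over all 18 libraries). Adjustment was by Benjamini-Hochberg across 15531 genes, with calls below 0.05. The test covered 7 comparisons and 2 interactions. The 36 genes without a symbol held 0.001% of counts. CPM values used the same factors. Median biological variation was 8.52%. TPM were tested with limma 3.58.1 on log2(TPM + 0.5), a scale that understates changes of low genes.

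The other alternatives were RLE and upper quartile factors, no filter, DESeq2 1.42.0, only the groups compared, a replicate block, the read kind as a covariate and each replicate left out. Untreated day 6 from replicate 2 alone was chosen after seeing the data. Most same-numbered libraries did not deviate together (r from -0.135 to 0.337 over 45 pairs, median 0.004, 7 above 0.1), so numbers were not taken as pairs. The highest r were for replicate 1 in groups without RA. They were 0.337 for untreated day 6 with untreated day 9, and 0.297 for untreated day 9 with CHIR99021 with BMP4 alone.

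The members and lists were chosen with earlier results of these data known. All members are named; from each list, genes were eligible that were among the 4 largest called log2 fold changes of a comparison and reached 5 CPM in the higher group; and for each member the 2 genes of nearest pattern with at least 5 CPM in their highest group, without clones, antisense RNAs and pseudogenes. Promoter sequences are from RefSeq.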

Additional observations from a re-analysis of the deposited data

Results flagged for a closer look

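The response to CHIR99021 with BMP4 at day 9 differed between cells with and without RA in 8 members by the interaction term of edgeR's quasi-likelihood test. The terms were -2.04 for ID1 (adjusted p = 2.6e-05), -1.91 for ID2 (2.1e-10), -2.34 for ID3 (2.3e-08), -1.07 for ID4 (0.0014), -2.94 for SMAD6 (7e-11), -2.21 for SMAD7 (8.9e-12), -1.92 for BAMBI (0.00018) and -4.04 for MSX1 (1.1e-07) on the log2 scale. The read kind runs with the untreated day 9 group in this term and cannot be told apart from treatment.

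The response to RA differed between day 9 and day 6 in 9 members. The terms were 2.69 for ID1 (adjusted p = 3.8e-06), 2.40 for ID2 (5.9e-11), 2.53 for ID3 (1.3e-08), 1.64 for ID4 (7.4e-05), 1.68 for SMAD6 (3.2e-07), 2.05 for SMAD7 (1.9e-10), 0.93 for SMAD9 (8.9e-05), 1.11 for BAMBI (0.012) and 1.44 for MSX1 (0.029). The calls for BAMBI and MSX1 were lost with the read kind as a covariate (adjusted p = 0.14 for BAMBI and 0.055 for MSX1), and that for MSX1 also on leaving out any of 5 single libraries.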

How the results depend on the processing

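Of 90 member values, 74 were called. With RLE factors, upper quartile factors, no low-count filter or the replicate block, all 90 kept their direction and side of the threshold; the block called 6 members and 6726 genes, against 6654, for CHIR99021 with BMP4 without RA. Upper quartile factors moved the median of all genes by 0.104 (CHIR99021 with BMP4 after RA), -0.116 (RA at day 9), -0.11 (day 9 over day 6 after RA) and -0.12 (RA by day). The read-kind covariate changed most: 0 members and 148 genes were called for CHIR99021 with BMP4 without RA, 0 and 1304 for the RA by CHIR99021 with BMP4 interaction, 1 and 1315 for RA at day 9, and 1098 genes for RA at day 6. It turned ID1 to -1.61, ID2 to -0.18, ID3 to -1.33, ID4 to -0.94, SMAD7 to -1.13 and MSX2 to -4.27 for CHIR99021 with BMP4 without RA. In the interaction it turned ID4 to 0.41, SMAD9 to 0.76, BAMBI to 0.021 and MSX2 to 4.27. For RA at day 6 it turned SMAD6 to -0.92 and MSX1 to 0.58, and for RA at day 9 ID1 to -1.001, ID2 to -0.77, ID3 to -0.48 and ID4 to -1.29. No reversed value was called, and the cause was not tested. DESeq2 turned MSX2 to -0.002 (CHIR99021 with BMP4 after RA) and called MSX2 for RA at day 6 (-1.33, adjusted p = 0.035). limma on TPM turned SMAD6 to 0.17 (CHIR99021 with BMP4 without RA) and MSX1 to 0.17 (RA at day 6). It also called 5 values that were not called on counts: SMAD7 for CHIR99021 with BMP4 without RA (0.38, adjusted p = 0.02), SMAD9 in the interaction (-0.56, 0.018), SMAD6 for RA at day 6 (0.36, just under 0.05), ID4 for RA at day 9 (0.54, 0.017) and MSX1 for untreated day 9 over day 6 (-0.98, 0.021). With only the groups compared, ID4 was not called for untreated day 9 over day 6 (adjusted p = 0.069). Against untreated day 6 replicate 2 alone, MSX1 was at 0.089 and MSX2 at 0.56 for RA at day 6, and 4495 genes were called for untreated day 9 over day 6; fewer libraries enter that fit.

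Leaving out each replicate gave 6 to 6 members and 5568 to 6439 genes called for CHIR99021 with BMP4 without RA, 7 to 8 and 9087 to 9687 after RA, 8 to 9 and 7609 to 8198 for their interaction, 7 to 7 and 6580 to 7000 for RA at day 6, 7 to 8 and 9324 to 9791 for RA at day 9, 10 to 10 and 5534 to 6364 for RA under CHIR99021 with BMP4, 9 to 10 and 6287 to 6910 for untreated day 9 over day 6, 9 to 10 and 8350 to 8866 after RA, and 8 to 9 and 7348 to 7829 for RA by day. Uncalled values that changed sign were MSX1 (-0.36 to 0.33, RA at day 6), ID3 (-0.029 to 0.15) and SMAD6 (-0.18 to 0.037) for CHIR99021 with BMP4 without RA, and MSX2 (-0.23 to 0.51 for CHIR99021 with BMP4 after RA, -0.78 to 0.31 for RA by day). Calls gained were the MSX2 interaction without untreated day 9 replicate 1 (adjusted p = 0.026) or RA day 9 replicate 3 (0.046), and MSX1 over time without replicate 3 of day 6, untreated (0.047) or after RA (0.042). MSX1 was under 4 CPM outside 1 group, so its folds rest on few counts. MSX2 was less precise still, with an SE of 0.726 against 0.38 for MSX1 in RA at day 6. In RA by day the SE was 0.898 for MSX2 and 0.538 for MSX1.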
